A study of Homo sapiens with 7 samples.

Results

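The gene expression of human dermal fibroblasts expressing progerin was compared with that of control fibroblasts, to find the genes whose expression is altered when progerin is made. The comparison took up 3 of the 7 arrays of the series, 1 of progerin cells and 2 of control cells (control 1 and control 2), chosen by their titles. The labels give 1 strain of primary dermal fibroblasts, from a healthy individual, for every array, with RNA taken at passage 10. The study's methods name 2 strains with cultures in duplicate, and do not say which cultures went onto the arrays. The progerin cells were labelled as overexpressing progerin in cells that carry their own LMNA genes, and stable lines were made by lentiviral transduction. The labels name no agent given to these cells. The sources used here do not say whether the control cells of these arrays carried a control virus, whether a line was a clone, or whether the control arrays came from separate cultures, so that the p-values rest on how far apart these 2 controls were, a spread that may be technical. The spread within progerin cells was not measured, since they had 1 array.

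Progerin is the form of lamin A made in Hutchinson-Gilford progeria. An internal deletion removes the site at which the protease ZMPSTE24 would cut off the farnesylated end of prelamin A, and the protein stays anchored in the inner nuclear membrane, where it alters the lamina that supports the nucleus and tethers chromatin. Dermal fibroblasts are the cells that lay down collagens, proteoglycans and elastic fibres of the skin, and they send and receive WNT, TGF-beta and growth factor signals. Skin, bone and vessels are among the tissues altered in progeria.

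The values were MAS 5.0 signals, a linear intensity per probe set. The median signal was 70.3 on the progerin array and 75.4 and 68.3 on the controls, and the 3' to 5' ratio of beta-actin was 1.17 on the progerin array and 1.24 and 1.06 on the controls. For each gene the brightest probe set on average was kept among those reaching 100 on at least 1 array of the series, which left 12722 genes, tested by limma as log2(signal + 16). All 15 dermal fibroblast markers were measured, with a summed signal of 356462 in progerin cells and 435141 and 401303 in controls, and 0 of them were called. COL1A2, a chain of type I collagen, read 38261 in progerin cells and 52329 and 48241 in controls. Of the markers of other cell types with a probe set, those reaching a signal of 100 on at least 1 of the 3 arrays were 3 of 10 for keratinocytes, 3 of 10 for endothelium, 3 of 8 for melanocytes, 2 of 9 for leukocytes, 10 of 12 for smooth muscle and pericytes and 3 of 8 for adipocytes. Bright among them were the keratinocyte markers PERP (12008 in progerin cells, 7367 and 6685 in controls) and KRT10 (5634 in progerin cells, 10671 and 7555 in controls), and the melanocyte markers KIT (1359 in progerin cells, 725 and 467 in controls) and EDNRB (1282 in progerin cells, 824 and 1081 in controls). KRT14 of keratinocytes (12.3 in progerin cells, 4.07 and 9.83 in controls), MLANA of melanocytes (5.55 in progerin cells, 20.1 and 6.97 in controls) and CDH5 of endothelium (4.61 in progerin cells, 7.53 and 8.06 in controls) were under 100 on all 3 arrays.

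LMNA, which encodes lamin A and its precursor, read 16289 at its brightest probe set in progerin cells and 9300.2 and 14029 in controls, a log2 difference of 0.51 ± 0.40 (standard error) that did not pass the test. Of the other 5 LMNA probe sets, 1 was above both controls, at 13283 in progerin cells against 7496 and 10863 in controls, and 1 reading 2459 against 2035 and 2263 was also above both. One of 10011 lay between the controls (6806 and 10059), one of 229 was below both (285 and 313), and the dimmest, at 39.1, lay between 24.6 and 47.1. Since the sources used here do not place these probes on the introduced progerin sequence, LMNA signal is no test of the label. LMNB1 read 218 in progerin cells and 234 and 279 in controls, and LMNB2 read 773 in progerin cells and 535 and 612 in controls. LBR, the lamin B receptor, read 1705 in progerin cells and 1822 and 1615 in controls, while ZMPSTE24 read 5073 against 4841 and 4973. ICMT, the methyltransferase of the farnesylated end, differed by 0.25 ± 0.33 on the log2 scale, and FNTA, a subunit of farnesyltransferase, by -0.32 ± 0.33. FNTB, the other subunit, was dim, at 46.6 in progerin cells and 147 and 104 in controls, a difference of -1.16 ± 0.37 that fell short of 2-fold against control 2 alone. None of these lamin and processing genes was called. Of the 41 measured genes of the lamina list, the only one called is no gene of the envelope or lamina. It was FOXQ1, a forkhead transcription factor that the study followed up and that was listed beside them, which read 1401 in progerin cells and 205 and 449 in controls and rose by 2.15 ± 0.54.

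A gene was called where its unadjusted p from limma was under 0.05 and the progerin array was more than 2-fold, on log2(signal + 16), from each control alone in the same direction. By this rule 376 genes were higher in progerin cells (2.96% of those tested) and 180 were lower (1.41%). Progerin was over 4-fold from each control in 83 genes called higher and 28 called lower, and over 8-fold in 26 and 5. No gene had an adjusted p under 0.05 from limma (smallest 0.241, 860 genes at an unadjusted p under 0.05), whereas the same test with an intensity trend gave 16. The controls themselves were over 2-fold apart in 1180 genes (9.28%), against 1357 genes in which progerin was over 2-fold from control 1 and 1280 in which it was over 2-fold from control 2. Of the genes called higher, 184 read under 100 on both controls, and of those called lower, 97 read under 100 in progerin cells. Fold changes of such dim genes are understated on this scale and depend on the pseudocount. A lower signal in these cultures may stand for fewer cells of a type or less RNA per cell, which cannot be told apart here.

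**Figure D1:**
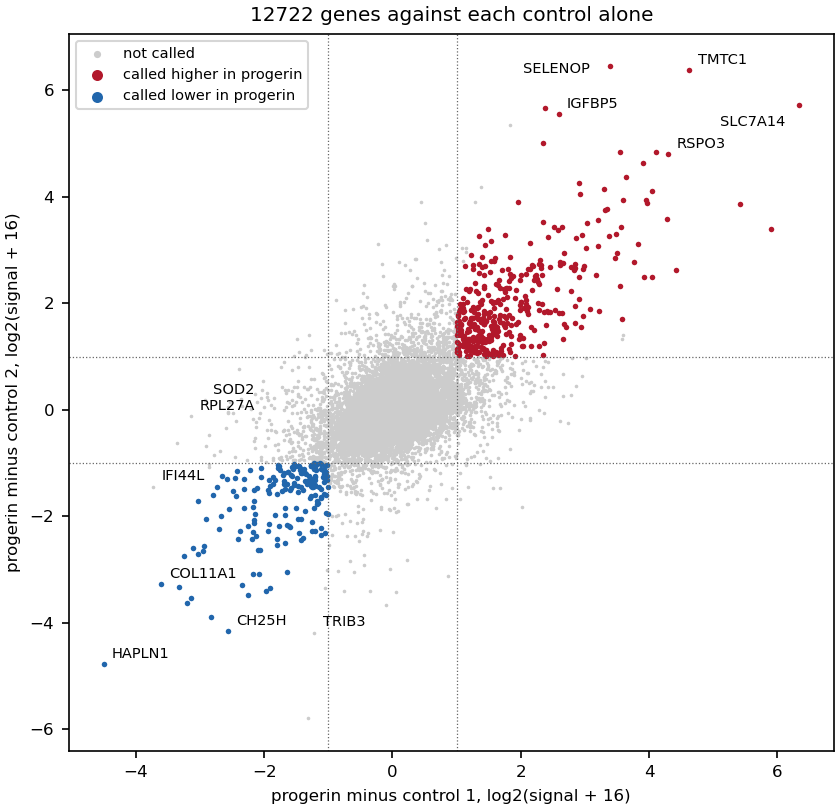
Log2 difference of progerin from control 1 (horizontal axis) and from control 2 (vertical axis) for each of 12722 genes, on log2(signal + 16), with dotted lines at 2-fold. The 376 genes called higher (red) and 180 called lower (blue) fill the outer corners, SLC7A14 and TMTC1 lie far from both controls, SOD2 is far from control 1 alone, and TRIB3, past 2-fold from both controls, missed the p required.

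The largest rises were mostly in genes that were dim in the controls. The rises are ranked by the smaller of the differences from the single controls. Genes dim in the controls were kept where any array of the series reached the minimum signal. This filter favours rises among such genes, so their dimness in the controls is a description only. The solute carrier SLC7A14 read 1636 in progerin cells and 4.41 and 15.3 in controls, a rise of 6.03 ± 0.41 (adjusted p = 0.241, limma). TMTC1, an O-mannosyltransferase of the endoplasmic reticulum, read 1761 in progerin cells and 55.9 and 5.36 in controls, and PTGFRN, a tetraspanin partner, read 1079.8 against 9.50 and 59.1. RSPO3, which enhances WNT signaling from outside the cell, read 2377 in progerin cells and 105 and 69.8 in controls. In plain signal the progerin value was 107 times the brighter control for SLC7A14, 31.5 times for TMTC1, 18.3 times for PTGFRN and 22.5 times for RSPO3. DCLK1, a microtubule-binding kinase, rose by 4.47 ± 0.44, with 821 in progerin cells and 32.7 and 13.2 in controls. MAOA, the monoamine oxidase of mitochondria, read 512 in progerin cells and 18.1 and 18.4 in controls, nearly the same on both controls. B4GALT6, which makes lactosylceramide, read 519 in progerin cells and 19.7 and 5.39 in controls. ENPP5, of the nucleotide pyrophosphatase and phosphodiesterase family, and its neighbour ENPP4 rose together, by 3.77 ± 0.35 and 2.44 ± 0.33. STMN2, a microtubule-destabilising protein of neurons, was among the brightest, at 17687 in progerin cells and 279.7 and 1668 in controls. Its controls stood 5.97-fold apart, and its rise was 4.65 ± 1.07. The remaining genes among the 15 largest rises were the long non-coding RNA LINC00302, SFRP1, SFRP2, ADH1B, MPPED2 and ARHGAP20, with rises of 3.50 to 4.20. The array of progerin cells given farnesyltransferase inhibitor (FTI, 10 nM for 48 h), which would be set against the same controls, read 1221 for SLC7A14, 1792 for TMTC1, 476 for DCLK1 and 127 for LINC00302.

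The largest falls were mostly in genes that were bright in the controls. The pseudocount caps the fall of a gene that is dim in the controls. This brightness therefore follows in part from the scale, and the contrast with the rises is no separate result. HAPLN1, the link protein that holds hyaluronan to proteoglycans, read 32.8 in progerin cells and 1092 and 1324 in controls and fell by 4.64 ± 0.34 (adjusted p = 0.241, limma). Its 3 other probe sets fell by 3.63 to 4.28. COL11A1, a chain of a fibril-nucleating collagen, read 1338 in progerin cells and 16514 and 13105 in controls. PTGS2, the inducible cyclooxygenase, read 645 in progerin cells and 6043 and 8181 in controls, and IL6, an inflammatory cytokine, 1351 in progerin cells and 10434 and 7979 in controls. LHX9, a LIM homeobox factor, read 1571 in progerin cells and 12234 and 9943 in controls, and OXTR, the oxytocin receptor, 1273 in progerin cells and 11110.1 and 7805 in controls. CH25H, which makes 25-hydroxycholesterol, read 202 in progerin cells and 1277 and 3875 in controls, which were 3.04-fold apart. ID3, an inhibitor of helix-loop-helix factors and a target of BMP signaling, fell by 2.82 ± 0.50. SCRG1 read 188 in progerin cells and 1432 and 2989 in controls. OMD, MXRA5, P3H2 and COL4A1 of the matrix and the non-coding RNAs LINC02086 and LINC02475 made up the rest, with falls of 2.33 to 3.34. The controls of each of these 15 genes lay above progerin with no overlap, as the rule requires. With FTI the progerin cells read 46.6 for HAPLN1, 1749 for COL11A1, 561 for PTGS2 and 1763 for IL6.

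**Figure D2:**
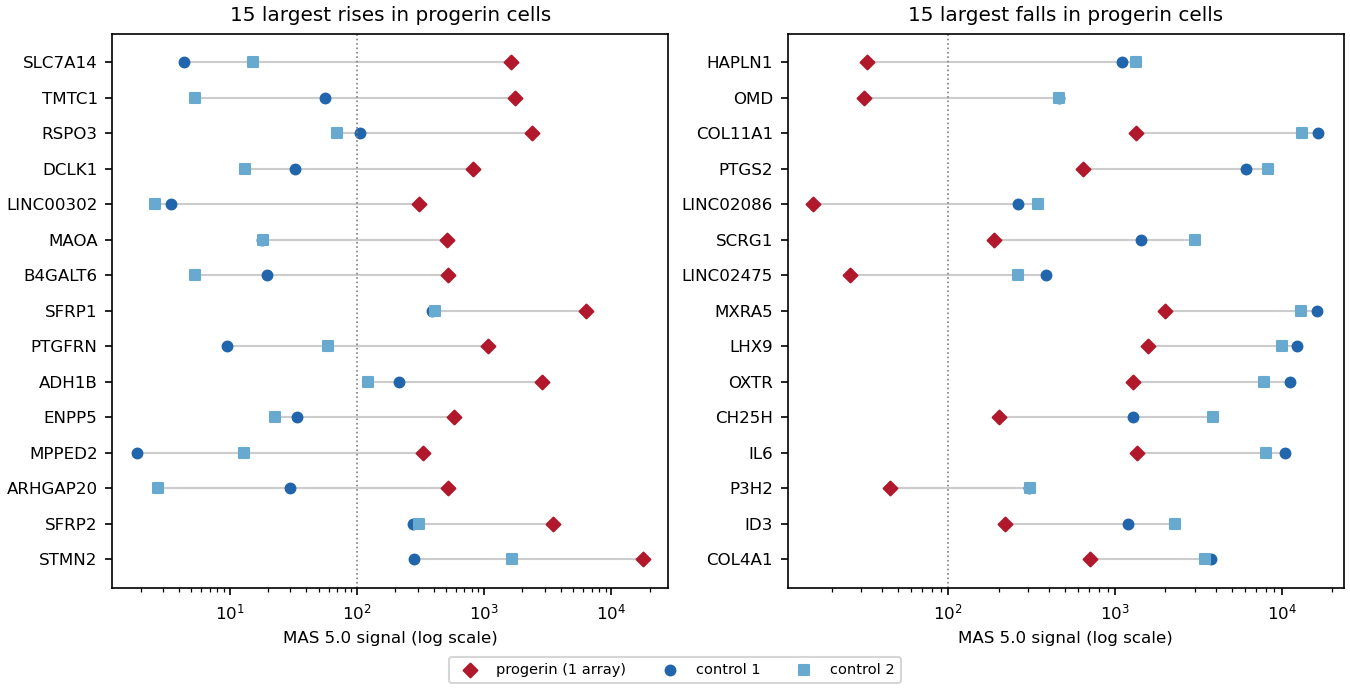
MAS 5.0 signal (horizontal log axis) of the 15 largest rises (left) and 15 largest falls (right), with progerin as red diamonds and the controls as blue circles and squares, 1 array each. The dotted line marks a signal of 100, and most rises start below it on the controls while most falls start well above it. The filter and the pseudocount favour this contrast.

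The members of 46 gene lists were counted next, and 28 lists with at least 3 called members are described here. Counts are read against the 2.96% of all genes called higher and 1.41% called lower, without a test over a list. The lists were chosen with earlier results of these data known, so a share above these is a description and no support. The median log2 change of all genes tested was 0.01.

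**Figure D3:**
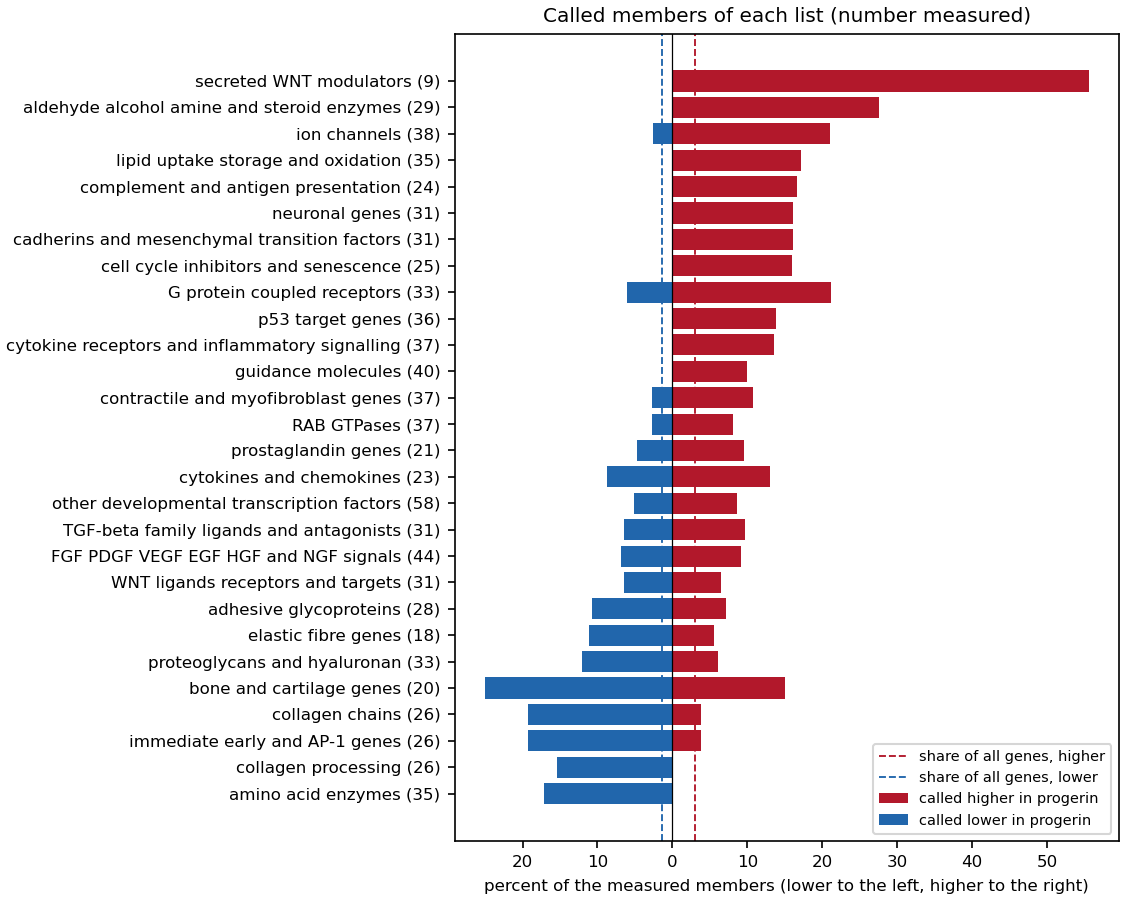
Percent of the measured members of each list called higher (red, right) or lower (blue, left) in progerin cells, with the number measured in brackets and dashed lines at the shares of all genes, 2.96% and 1.41%. The secreted WNT modulators have the largest share called higher, and collagen processing and amino acid enzymes have members called lower and none higher.

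In the matrix, more collagen genes and enzymes of collagen processing were called lower than higher. Of 26 measured collagen chains, 5 were lower and 1 higher, and 21 lay below the controls' mean (median log2 change -0.33). COL4A1 and COL4A2, the chains of basement membrane collagen that share a promoter, read 702 and 1711 in progerin cells, against 3724 and 3459 for COL4A1 and 4297 and 4453 for COL4A2 in controls. COL8A1 read 8697 in progerin cells and 24177 and 23368 in controls, and COL5A2, of fibril-regulating type V collagen, 9011 in progerin cells and 18737 and 21452 in controls. The exception was the transmembrane collagen COL13A1, which rose to 3448 in progerin cells, against 695 and 923 in controls. The main dermal collagens were not called: COL1A1 read 28403 in progerin cells against 39093 and 29878 in controls, and COL3A1 34131 against 35289 and 38721. Of 26 measured genes of collagen processing, 4 were lower and 0 higher, and 23 lay below the controls' mean (median -0.65). P3H2, P3H1 and P3H4 are of the prolyl 3-hydroxylase family, and ADAMTS2 removes the N-propeptide of procollagen. P3H2 read 44.6 in progerin cells and 304 and 311 in controls, P3H1 1494 in progerin cells and 3535 and 3985 in controls, and P3H4 fell by 1.38 ± 0.39. ADAMTS2 read 1659 in progerin cells and 3608 and 3588 in controls at its brightest probe set, but its 2 other probe sets differed by 0.25 the other way.

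Proteoglycans and glycoproteins of the matrix moved in both directions. Of 33 proteoglycan and hyaluronan genes, 4 were lower and 2 higher. The small leucine-rich proteoglycans split: OMD read 31.2 in progerin cells and 459 and 458 in controls, and its neighbour ASPN read 398 in progerin cells and 1966 and 1862 in controls. FMOD and PRELP, also neighbours, rose instead, PRELP to 7244 in progerin cells against 1417 and 614 in controls and FMOD by 1.73 ± 0.42. ACAN, the large proteoglycan of cartilage, was just past the fold required, at 721 in progerin cells and 1642 and 1467 in controls. Among 18 elastic fibre genes, FBN2, a fibrillin, and EFEMP1, a fibulin, fell by 1.52 ± 0.34 and 1.83 ± 0.42, and FBLN2, another fibulin, rose to 2683 in progerin cells against 437 and 543 in controls. Among 28 adhesive glycoproteins, POSTN (periostin), MXRA5 and the basement membrane gene NID2 were lower, and COMP and SMOC2 higher. POSTN read 2112 in progerin cells and 10122 and 23772 in controls. COMP, the cartilage oligomeric matrix protein, read 579 in progerin cells and 83.0 and 41.0 in controls. Of 31 matrix proteases and inhibitors 0 were called, and of 16 integrin genes 1, ITGA8, was higher. Among 20 bone and cartilage genes, 5 were lower (OMD, POSTN, SCRG1 and ACAN among them) and 3 higher. ENPP1, which makes the mineralisation inhibitor pyrophosphate, read 396 in progerin cells and 1547 and 1794 in controls, and ALPL, the phosphatase that breaks it down, read 200.2 in progerin cells and 89.5 and 51.9 in controls. MGP, an inhibitor of calcification, was called higher but dim, at 58.4 in progerin cells and 1.28 and 3.59 in controls, and was 7.07 with FTI.

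**Figure D4:**
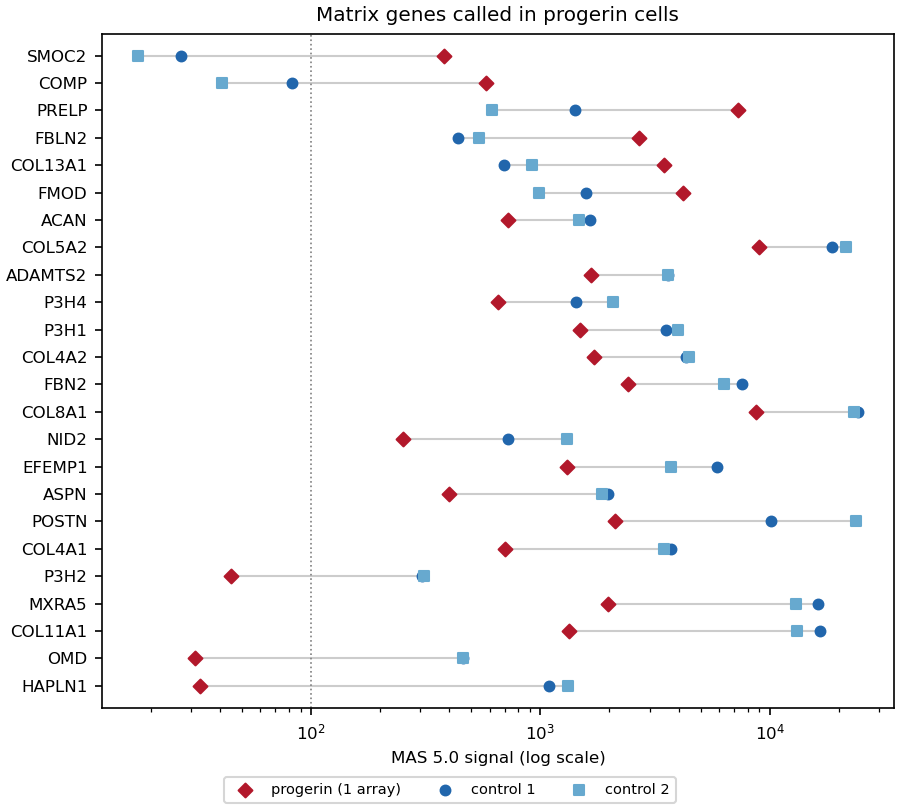
MAS 5.0 signal (horizontal log axis) of the 24 matrix genes called in progerin cells, ordered by the difference from the nearer control, with progerin as red diamonds and the controls as blue circles and squares. The top 6 genes, SMOC2 to FMOD, have the progerin value above both controls and the other 18 have it below both.

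Secreted modulators of WNT signaling had the highest share of calls among the 28 lists described, which were chosen with earlier results known. Of 9 measured, 5 were higher and 0 lower, 8 lay above the controls' mean, and the median log2 change was 2.14 (2.45 against control 1 and 1.84 against control 2). They act in different ways, since SFRP1, SFRP2 and SFRP4 bind WNT proteins, DKK2 binds the co-receptor, and RSPO3 raises the level of WNT receptors. SFRP1 read 6285 in progerin cells and 386 and 410.3 in controls, SFRP2 3455 in progerin cells and 277 and 305 in controls, and DKK2 2141 in progerin cells and 143 and 299.9 in controls. The other 2 probe sets of SFRP1 rose by 3.88 and 4.57. SFRP4 rose less, to 1076 in progerin cells against 184 and 289.7 in controls. With FTI the progerin cells read 5038 for SFRP1, 2724 for SFRP2, 2466 for DKK2 and 1378 for RSPO3. The 31 WNT ligands, receptors and targets had 2 called higher and 2 lower. CCND1, cyclin D1, was the bright one, at 12145 in progerin cells and 3372 and 4603 in controls. WNT9A rose by 1.35 ± 0.37 from dim signals, and the intracellular antagonist NKD2 fell by 1.74 ± 0.54, to 9.63 in progerin cells against 43.1 and 108 in controls. The ligand WNT2B fell by 1.41 ± 0.44, to 80.7 in progerin cells against 315 and 183 in controls. Its other probe sets fell by 1.93 and 2.72.

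Of 31 genes of the TGF-beta family and its antagonists, 3 were higher and 2 lower. The BMP-family ligand GDF5 read 842 in progerin cells and 125 and 109 in controls. The BMP antagonist NOG and the decoy receptor BAMBI rose by 1.18 ± 0.32 and 1.25 ± 0.36, while the BMP targets ID1 and ID3 fell. The calls of NOG and BAMBI were lost with a pseudocount of 64, that of NOG also with an intensity trend and that of BAMBI with quantile normalization. ID1 read 171 in progerin cells and 430.2 and 888 in controls, and ID3 219 in progerin cells and 1186 and 2294 in controls. Of 18 genes of the insulin-like growth factor axis, the binding proteins IGFBP2 and IGFBP5 were higher. IGFBP5 read 8320.2 in progerin cells and 1367 and 161 in controls, so that its rise of 4.07 ± 1.25 rests on controls that were 8.48-fold apart. Its 5 other probe sets rose by 2.38 to 3.56. Of 44 genes listed by family with other growth factors and receptors, not each of which is a secreted ligand or a receptor, 4 were higher and 3 lower. The ligand PDGFD rose to 1725 in progerin cells, against 423 and 428 in controls, whereas PDGFA fell to 181, against 397 and 491. FGF13 and FGF18 rose by 1.44 ± 0.45 and 1.55 ± 0.41, and NRG1, a ligand of ERBB receptors, fell by 1.32 ± 0.39. PDGFA and NRG1 lost their calls with median centring and with a pseudocount of 64. TEK, the angiopoietin receptor, read 285 in progerin cells and 23.5 and 2.19 in controls. Its other probe set read 38.3 in progerin cells, between the controls at 6.21 and 46.4. TEK is also an endothelial marker. The summed signal of the 10 endothelial markers was 576 in progerin cells and 385 and 319 in controls. That sum includes TEK itself, at 285 in progerin cells and 23.5 and 2.19 in controls, so it gives no separate view of the other markers. CDH5 and TIE1 were under 10 on all 3 arrays. FLT1, a VEGF receptor, was called lower from dim signals (19.5 in progerin cells, 94.8 and 143 in controls), and its other 2 probe sets differed by 0.64 and -0.18.

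Inflammatory genes did not move as 1 group. Of 23 measured cytokines and chemokines, IL6 and CXCL9 were lower and CCL26, CSF1 and TNFSF4 higher. CCL26, an eosinophil chemokine, read 1150.4 in progerin cells and 127 and 86.5 in controls, and CSF1, the macrophage growth factor, 2643 in progerin cells and 1009 and 942 in controls. Of 37 cytokine receptors and inflammatory signalling genes, 5 were higher and 0 lower. IL13RA2, the decoy receptor for interleukin 13, read 1862 in progerin cells and 97.1 and 316 in controls, ACKR3, a scavenging chemokine receptor, 5293 in progerin cells and 1768 and 1846 in controls, and TNFRSF21, a death receptor, 519 in progerin cells and 9.07 and 70.4 in controls. IL6R rose by 1.64 ± 0.36 while its ligand fell. Of 24 complement and antigen presentation genes 4 were higher and 0 lower: C3, the central complement protein, at 323 in progerin cells and 71.0 and 91.3 in controls, CD55, which limits complement, at 4261 in progerin cells and 1813 and 1955 in controls, and the class II genes HLA-DPA1 and CIITA, both under 100 on these arrays. Among leukocyte markers CD14 rose to 329 in progerin cells, against 87.2 and 55.3 in controls, with PTPRC at 22.2 in progerin cells and 46.3 and 19.8 in controls and LYZ at 28.1 in progerin cells and 7.34 and 2.93 in controls. The 43 interferon response genes depended on the control: their median log2 change was -0.84 against control 1 and -0.05 against control 2, and 2 were called lower. IFITM1 read 2361 in progerin cells and 11091 and 5177 in controls, and MX1, which was not called, 393 in progerin cells and 2415 and 409 in controls.

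Of 36 measured target genes of p53, 5 were higher and 0 lower, 26 lay above the controls' mean, and the median log2 change was 0.54 against control 1 and 0.50 against control 2. SPATA18, which acts in mitochondrial quality control, read 2854 in progerin cells and 697 and 690.3 in controls, TNFRSF10C, a decoy receptor for TRAIL, 272 in progerin cells and 51.6 and 63.5 in controls, and RRM2B, the p53-inducible ribonucleotide reductase subunit, 2242 in progerin cells and 909 and 766 in controls. MDM2, the ubiquitin ligase of p53, rose by 1.35 ± 0.38, with 1601 in progerin cells and 514 and 744 in controls, and DRAM1, a regulator of autophagy, rose by 1.34 ± 0.42. CDKN1A, which encodes the inhibitor p21, read 10102 in progerin cells and 3789 and 5658 in controls and missed the fold against control 2. The targets PMAIP1 and GDF15 were not called, at 448 and 223 in progerin cells against 1065 and 673 for PMAIP1 and 143 and 626 for GDF15 in controls. Of 25 cell cycle inhibitors and senescence genes, 4 were higher and 0 lower, and they include genes that drive as well as genes that block the cycle. The inhibitor CDKN1C read 329 in progerin cells and 86.1 and 101 in controls, cyclin D2 (CCND2) 839 in progerin cells and 228 and 144 in controls, and HMGA1, a chromatin protein, 4630.4 in progerin cells and 1487 and 1564 in controls. Of 76 replication and mitosis genes 0 were called, with a median of -0.03 against control 1 and 0.50 against control 2. HMMR read 1824 in progerin cells and 1329.8 and 611 in controls. Of 38 listed DNA repair and telomere genes 0 were called. That list does not hold the telomerase gene TERT, which was called lower and is given under other observations. Of 49 histone and heterochromatin genes 1, KMT5C, a methyltransferase of histone H4, was lower, at 20.2 in progerin cells and 146 and 136 in controls.

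Of 29 measured genes of the list of enzymes for alcohols, aldehydes, amines and steroids, 8 were higher and 0 lower. Of the 29, 22 lay above the controls' mean (median 0.68). ADH1B, an alcohol dehydrogenase, read 2857 in progerin cells and 213 and 122 in controls, EPHX2, the soluble epoxide hydrolase, 302 in progerin cells and 11.1 and 47.1 in controls, and the aldehyde oxidase AOX1 2905 in progerin cells and 938 and 549 in controls. MAOA was given above. The other 4, ALDH1A3, ALDH3A2, AKR1C2 and SULF2, rose by 1.23 to 1.39. SULF2, though listed with them, is a sulfatase of heparan sulfate and handles none of these compounds. Of 35 genes of lipid uptake, storage and oxidation, 6 were higher and 0 lower. CD36, a fatty acid receptor, read 776 in progerin cells and 64.3 and 28.7 in controls, and PDK4, the kinase that turns off pyruvate dehydrogenase, 299.8 in progerin cells and 27.7 and 34.1 in controls. The transporters ABCA8 and ABCA6 rose by 3.04 ± 0.35 and 2.10 ± 0.39, and FABP3 and APOD, which bind lipids, by 2.16 ± 0.61 and 2.06 ± 0.37. Of the 8 adipocyte markers, LEP, which encodes leptin, read 1497 in progerin cells and 1099 and 85.0 in controls, and PPARG, the main regulator of fat cell formation, 562 in progerin cells and 283 and 240.1 in controls. The summed signal of the 8 was 2271 in progerin cells and 1642 and 583 in controls, while ADIPOQ, PLIN1 and FABP4, which define adipocytes, were under 30 on all 3 arrays, and the part of these markers in the rise of the lipid genes was not tested. Of 21 genes of the prostaglandin list, PTGS2 was lower and PTGFRN and ANXA3 higher. Of these only PTGS2 makes prostaglandins, since PTGFRN is the tetraspanin partner named above and ANXA3 is an annexin. SELENOP, a selenium carrier, read 2265 in progerin cells and 201 and 10.0 in controls, which were far apart.

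Enzymes of amino acid synthesis and the genes of the ATF4 response to amino acid shortage had members called lower in progerin cells and none higher. ATF4 is the transcription factor made when translation is curbed under such stress, and it binds composite elements near the start sites of its targets. Of 35 measured genes, 6 were lower and 0 higher. The median log2 change was -0.28 against control 1 and -1.16 against control 2, and control 2 exceeded control 1 more than 2-fold in 15 of the 35. PSAT1, of serine synthesis, read 1754 in progerin cells and 5514 and 14601 in controls. BCAT1, the cytosolic branched-chain aminotransferase, read 1661 in progerin cells and 7621 and 8959.7 in controls, and its 3 other probe sets fell by 1.80 to 2.26. CTH, which makes cysteine, read 102 in progerin cells and 363 and 409 in controls. At these brightest probe sets BCAT1 and CTH fell against controls that lay close together. The other BCAT1 probe sets had controls of 5883 and 6419, of 441 and 1058, and of 813 and 1922, so that control 2 was well above control 1 in part of them. PYCR1, of proline synthesis, fell by 1.63 ± 0.38, and the folate enzymes MTHFD2 and ALDH1L2 by 1.68 ± 0.60 and 1.66 ± 0.55. ASNS, the asparagine synthetase, read 981 in progerin cells and 2058 and 10067 in controls and TRIB3 234 in progerin cells and 566 and 4523 in controls, and neither was called, with controls 4.89-fold and 7.99-fold apart. CHAC1 read 179 in progerin cells and 293 and 1382 in controls. The solute carrier SLC7A5, which brings in large neutral amino acids, read 509 in progerin cells and 777 and 4304 in controls.

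**Figure D5:**
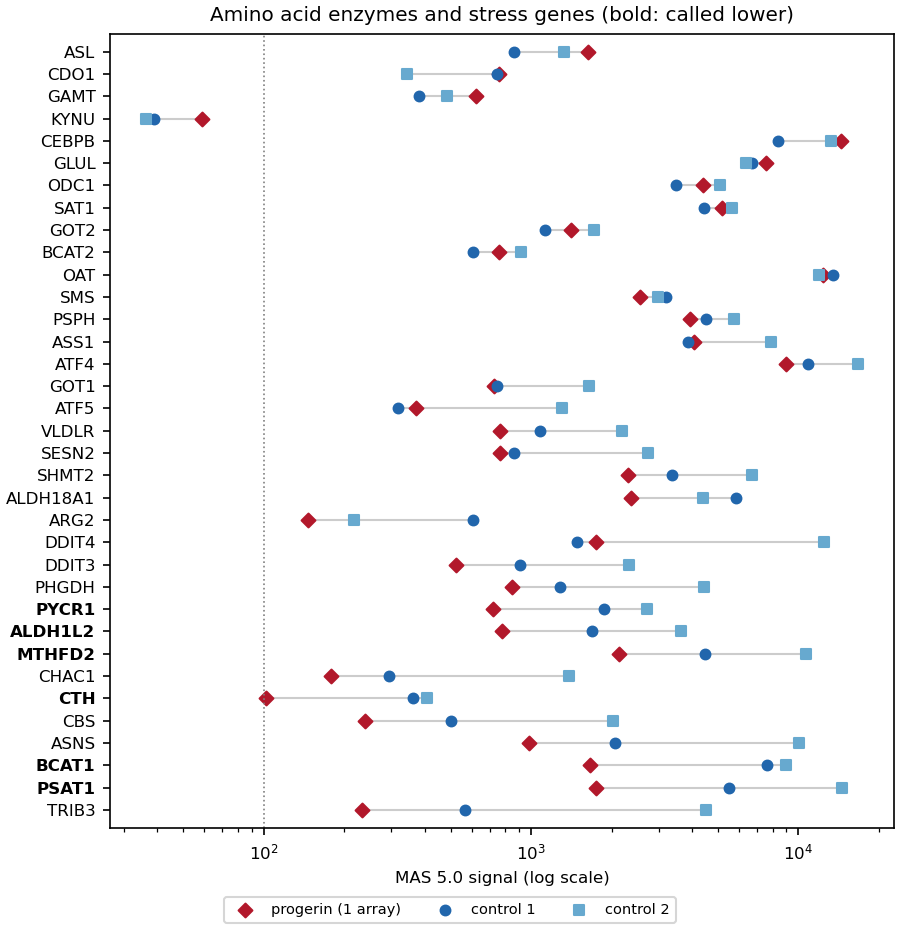
MAS 5.0 signal (horizontal log axis) of the 35 measured amino acid enzymes and stress genes, with progerin as red diamonds, the controls as blue circles and squares, and the 6 called lower in bold. Control 2 lies far to the right of both other arrays for TRIB3, ASNS and DDIT4, while both controls lie to the right of progerin for BCAT1 and CTH.

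Promoter windows of these genes were searched for TGATGNAA, the core letters of the composite element, on both strands. The RefSeq windows (GRCh38.p14) run 250 bases before to 50 after each start site, and of the 27305 genes with a window 4.46% hold the motif in at least 1 (3.62% of all 35116 windows). Of the 29 listed genes with a window, 4 hold it (ASNS, BCAT1, CHAC1 and GOT1), and of the 4 called genes with a window, 1 does, BCAT1. A match is a description of the letters and not a site of binding. The 100-base stretches of 3 of them are shown because they carry the motif in a gene that was called (BCAT1) and in 2 that were not (ASNS and CHAC1), with the motif in capitals, read along the strand of the gene. They lie at chr12:24949102-24949201 for BCAT1 (minus strand, motif beginning 48 bases before the start site), chr7:97872409-97872508 for ASNS (minus strand, 68 bases) and chr15:40953221-40953320 for CHAC1 (plus strand, 209 bases, motif on the other strand).
BCAT1: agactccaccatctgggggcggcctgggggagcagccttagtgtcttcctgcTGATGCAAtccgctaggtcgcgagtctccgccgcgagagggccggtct
ASNS: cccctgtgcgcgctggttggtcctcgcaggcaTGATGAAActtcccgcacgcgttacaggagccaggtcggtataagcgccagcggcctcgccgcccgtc
CHAC1: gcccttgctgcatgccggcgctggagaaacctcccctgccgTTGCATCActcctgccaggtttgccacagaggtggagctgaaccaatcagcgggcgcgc

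Lists of the cell surface and of excitable cells held more members called higher than lower, as did all genes (2.96% higher and 1.41% lower). Genes dim on both controls, such as INA, NEFL, DCLK1, KCND2 and JUP, entered through an array where they were high. This filter favours calls of higher among such genes. Of 33 G protein coupled receptor genes, 7 were higher and 2 lower. The bradykinin receptors BDKRB2 and BDKRB1, neighbours on chromosome 14, rose together: BDKRB2 read 2470.4 in progerin cells and 300.1 and 380.2 in controls, and BDKRB1 1002 in progerin cells and 325 and 131 in controls. RXFP1, the relaxin receptor, read 1134 in progerin cells and 137 and 44.1 in controls, and ADRA2A and GPRC5B rose by 2.22 ± 0.37 and 2.03 ± 0.38. F2R, the thrombin receptor, fell with OXTR, to 225 in progerin cells against 1058 and 1037 in controls. Of 38 ion channel genes, 8 were higher and 1 lower. The water channel AQP1 read 3095 in progerin cells and 482 and 869 in controls, and the potassium channel KCND2 237 in progerin cells and 34.8 and 22.4 in controls, while the potassium channel KCNT2 fell by 1.35 ± 0.33. Of 31 neuronal genes, 5 were higher and 0 lower, STMN2, DCLK1, the neurofilament genes INA and NEFL, and NPTX1, a pentraxin. INA read 270.0 in progerin cells and 12.8 and 5.20 in controls, and NEFL 121 in progerin cells and 29.7 and 34.4 in controls. INA and NEFL are also among 12 markers of HEK293, an embryonic kidney line the study used, and the other 9 with a probe set, such as LIN28B and SOX2, were under 100 on all 3 arrays. Of 40 guidance molecules, 4 were higher and 0 lower, led by NTN1 (netrin-1), at 964 in progerin cells and 48.6 and 159 in controls. Of 31 cadherin and mesenchymal transition genes, 5 were higher and 0 lower. JUP (plakoglobin) read 166 in progerin cells and 17.1 and 12.3 in controls, CDH10 919 in progerin cells and 206 and 219 in controls, and the transcription factor ZEB2 rose by 1.60 ± 0.42. Of 37 RAB GTPases, 3 were higher and 1 lower, and RAB27B, of vesicle secretion, read 839 in progerin cells and 152 and 10.5 in controls, which were 14.4-fold apart.

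Of 37 measured genes of the contractile and myofibroblast list, 4 were higher and 1 lower. Of the 37, 20 lay below the controls' mean (median log2 change -0.03). CNN1, a calponin of smooth muscle, read 1325 in progerin cells and 561 and 405 in controls, and MYOCD, the coactivator of smooth muscle genes, 105 in progerin cells and 35.4 and 36.4 in controls. The summed signal of the 12 smooth muscle and pericyte markers was 6555 in progerin cells and 4059 and 3719 in controls, 10 of them reached 100 and MYH11 and DES, which define smooth muscle, read 9.72 and 13.9 in progerin cells. CNN1 and MYOCD are themselves among the 12, so that the sum holds their own rise. The part of the other markers in the rise of CNN1 was not tested. The rest of the 4 called higher were CCN5 and CCN3, which are matricellular and not contractile genes. CCN5 rose to 8216 in progerin cells against 876 and 961 in controls, and CSRP2, a LIM protein, fell to 5569, against 12742 and 12196.

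Among transcription factors, calls of immediate early genes were mostly lower and those of developmental factors went both ways. Of 26 immediate early and AP-1 genes, 5 were lower and 1 higher. IER3 read 2563 in progerin cells and 11683 and 9148 in controls, JUNB 275 in progerin cells and 679 and 713 in controls, and EGR3 49.1 in progerin cells and 333 and 129 in controls. KLF2 fell to 419 in progerin cells, against 2149 and 1193 in controls, at its brightest probe set, with 998 under FTI and a difference of 0.12 the other way at its other probe set. KLF4 rose to 8269.7 in progerin cells, against 3822 and 3156 in controls. Control 1 exceeded control 2 more than 2-fold in 6 of the 26. Of 58 other developmental factors, 5 were higher and 3 lower. The Iroquois homeobox genes split, IRX2 at 373 in progerin cells and 11.3 and 28.7 in controls and IRX3 at 1582 in progerin cells and 6739.7 and 13447 in controls. FOXO1 and EBF3 rose by 1.23 ± 0.35 and 1.40 ± 0.45, and DLX2 was called lower from signals under 100. Of 19 HOX genes, which keep the positional identity of a fibroblast, 0 were called.

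The remaining lists had fewer than 3 calls. Cholesterol synthesis (28 genes), oxidative phosphorylation (56) and ribosomal proteins (50) had 0. Of the 50 ribosomal protein genes, however, 48 lay below the controls' mean. Their median log2 change was small, at -0.28 against control 1 and -0.16 against control 2. Of 39 hypoxia and glycolysis genes, PFKFB3 and PFKFB4, which set the level of an activator of glycolysis, fell by 1.27 ± 0.35 and 1.22 ± 0.32. Of 42 chaperone and unfolded protein response genes, HSPB7 rose to 8925 in progerin cells, against 3066 and 2999.8 in controls, and ERO1B rose by 1.19 ± 0.32. Of 31 genes of cyclic nucleotide signaling, PDE3A, a phosphodiesterase, fell by 1.45 ± 0.40 and PRKAR2B, a regulatory subunit of protein kinase A, rose by 1.79 ± 0.32. Of 24 amino acid carriers SLC7A14 was higher and SLC38A4 lower. DLK2 fell by 1.73 ± 0.59 among 16 Notch genes. Its call was lost with quantile normalization, median centring, a pseudocount of 64 and an intensity trend. Of 51 genes of oxidative defence SELENOP was higher and GPX7 lower, and SOD2, which was not called, read 566 in progerin cells and 4413 and 498 in controls.

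Some called genes were neighbours on a chromosome. Among tested genes in genomic order, 37 runs held 2 or more neighbours called in 1 direction, 33 of them higher and 4 lower, with 76 genes in all. Since 2.96% of all genes were called higher and 1.41% lower, runs of higher genes had more chances to occur. How many runs would arise without any clustering was not tested. The longest runs held 3 genes. One comprised the lipid transporters ABCA8, ABCA9 and ABCA6 on chromosome 17, all higher, and the other COL4A1, COL4A2 and RAB20 on chromosome 13, all lower. Pairs of related genes were FMOD and PRELP on chromosome 1, IGFBP2 and IGFBP5 on chromosome 2, ENPP4 and ENPP5 on chromosome 6, OMD and ASPN on chromosome 9 and the bradykinin receptors on chromosome 14. Over all genes tested, 556 of 12722 were called in either direction. Among chromosomes with over 100 tested genes, the share called was highest on chromosome 18 (15 of 188, 7.98%). It was lowest on chromosomes 16 (15 of 564, 2.66%) and 19 (23 of 864, 2.66%). These shares are a description without a test.

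Other probe sets bore on the calls of part of the genes. Of the 556 called genes, 228 had at least 1 other probe set that passed the signal minimum, all others went in the same direction in 203, and at least 1 was past 2-fold from each control in 132. In 25 at least 1 went the other way, among them MDM2, of whose 7 other probe sets the dimmest read 31.0 in progerin cells and 40.2 and 29.1 in controls. Of the 148 named genes that were called, 47 lost the call under at least 1 alternative with the direction kept. Counted separately were 4 whose other probe sets had a median opposite to the call, ADAMTS2, KLF2, DLX2 and FLT1. Of these, DLX2 and FLT1 are also among the 47. With a pseudocount of 64 the call was lost in 30, among them MGP, HLA-DPA1, CIITA, FGF18, ANXA3, EBF3, ALPL, WNT9A, TNFSF4, FOXO1, MYOCD, ERO1B, ACAN, RAB20, DLX2, KCNT2, WNT2B, PDE3A, NKD2, EGR3, FLT1 and CXCL9. An intensity trend ended 14 calls, among them those of MGP, HLA-DPA1, CIITA, FGF18, ALPL, WNT9A, MYOCD, ERO1B, DLX2, KCNT2 and NKD2, quantile normalization also ended that of EBF3, and a pseudocount of 1 that of RAB27B. In 19 genes the median of the other probe sets kept the direction, with none of them past 2-fold from each control, among them COL13A1, COL4A2, FBN2, ITGA8, GPRC5B, IL6R, ACKR3, CD55, HMGA1, ZEB2, FOXO1, MYOCD, CSRP2, PDE3A and PFKFB4. The median of the other probe sets was 0.28 for ACKR3, 0.56 for ZEB2, 0.62 for HMGA1 and -0.38 for PFKFB4.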

How the data were processed

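Total RNA was hybridised to Affymetrix Human Genome U133 Plus 2.0 arrays. The authors deposited 1 table of linear intensity values, the MAS 5.0 signal per probe set (version not given in the sources used here), after background correction, summarisation and scaling. The methods name a target of 250, whereas the 2% trimmed mean of every deposited array was 500.07. Detection calls and the study's S-score, which needs probe-level values, were not used here.

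Gene names came from the platform annotation (41091 of 54675 probe sets with 1 gene), updated by gene ID to RefSeq of GRCh38.p14 (41037 matched), and 59 probe sets were left out. With limma 3.58.1 (R 4.3.3), log2(signal + 16) was fitted (1 residual and 3.50 prior degrees of freedom), contrasting progerin with the mean of both controls, with Benjamini-Hochberg adjustment over 12722 genes. Precision is limited by the small number of arrays. The fit was tested on simulated data. Named were the 15 largest rises and falls by the difference from the nearer control, up to 4 called members per list and direction, up to 2 of other lists, and the lamin processing genes. Further members were named after their values were seen. The comparison and the gene lists were chosen with earlier results of these data known. Alternatives were other normalizations, pseudocounts, filters, thresholds and probe sets, and leaving out each control.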

Additional observations from a re-analysis of the deposited data

Results flagged for a closer look

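Groups of 4 or more samples were lacking, so that no sample could be tested as far from its group. Of the named genes called in progerin cells, 5 lay on the opposite side of both controls by more than 2-fold on the array of prelamin A cells, which are set against the same 2 controls. The difference between these lines was not tested, since each had 1 array. CSRP2, a LIM protein, fell by 1.16 (log2) with progerin and was 1.30 higher than control in prelamin A cells, with signals of 5569 in progerin cells, 30807 in prelamin A cells and 12742 and 12196 in controls. The homeobox gene DLX2 was dim in progerin cells and controls, at 13.7 in progerin cells and 60.8 and 51.2 in controls, and read 963 in prelamin A cells, 3.77 above control on the log2 scale. NRG1 read 243 in progerin cells, 2055 in prelamin A cells and 515 and 770.1 in controls, and its difference from control in prelamin A cells was 1.68. ID1 read 171 in progerin cells, 14766 in prelamin A cells and 430.2 and 888 in controls, with a difference of 4.54 in prelamin A cells. ID3 read 219 in progerin cells, 12826 in prelamin A cells and 1186 and 2294 in controls, with a difference of 2.95 in prelamin A cells.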

How the results depend on the processing

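Of 376 genes higher and 180 lower, quantile normalization gave 368 and 179, and median centring 395 and 163. The count of higher genes was 598 with no filter on signal, 662 over every probe set and 198 at an unadjusted p under 0.01. The count of lower genes was 428 with no filter, 363 over every probe set, 69 at an unadjusted p under 0.01, 88 at a pseudocount of 64 and 118 where the mean of the 3 arrays had to reach 100. Leaving out 1 control left the fold against the other alone, with no test, and gave 819 to 840 higher genes and 440.0 to 538 lower genes. Of the 556 called genes, 341 kept their call with a pseudocount of 64, 434 with an intensity trend and 375 with the filter on the mean signal. An adjusted p under 0.05 was reached by 16 genes with the trend and by 0 in the main fit, with quantile normalization, with either pseudocount or with no filter. At other probe sets, the median log2 change of ADAMTS2 was 0.25, of DLX2 0.54, of KLF2 0.12 and of FLT1 0.23, opposite to their call. The cause of these changes was not tested. No paired analysis was possible because progerin had 1 array. Signals under 100 limit what can be measured for the 184 genes called higher from dim controls and the 97 called lower to dim progerin values.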

Other observations

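Some called genes that belong to no list were looked at after their values were seen. TERT, the catalytic subunit of telomerase, which cultured primary fibroblasts generally lack, read 41.8 in progerin cells and 210.0 and 591 in controls, a fall of 2.68 ± 0.66 (standard error) at 1 probe set. The other 4 arrays of the series read 11.8 to 59.7. RAC2, a GTPase best known in blood cells, read 1406 in progerin cells and 110.3 and 168 in controls, with PTPRC, the defining leukocyte marker, at 22.2 in progerin cells and 46.3 and 19.8 in controls. ASPA, which breaks down N-acetylaspartate, read 2276 in progerin cells and 279.9 and 219 in controls, and GABBR2, a subunit of the GABA-B receptor, 5876 in progerin cells and 681 and 1563 in controls. LRRC32, which holds latent TGF-beta at the cell surface, read 5470.0 in progerin cells and 1273 and 1296 in controls, and APCDD1, an inhibitor of WNT signaling at the membrane, 2205 in progerin cells and 487 and 235 in controls. ENPP2, which makes lysophosphatidic acid, rose to 14619 in progerin cells, against 4543 and 3667 in controls.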
